A study of Mus musculus with 12 samples.

Results

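Transcripts of 35 genes of glycolysis and of the response to low oxygen were followed in CD8+CD28low regulatory T cells, CD8 T cells with low surface amounts of CD28, the receptor for costimulation. The genes come from a list of names. Every row of the array table annotated to a listed symbol, or to an older synonym of it, was a candidate, and the row with the highest mean over the 12 arrays stood for the gene. That choice used no group labels, but the mean includes the activated arrays, so it can favour a row with a larger rise. For Ak4, Bnip3 and Pkm the chosen row had the lower mean in both native groups, and their other rows are given with their values. A row of their own was found for 33 of the 35 genes, among 19938 genes tested. Gapdh was covered by 25 rows that the annotation shares with other genes, so no value is given for it, and Eno1 was not analysed here. Of the 33 genes, 18 serve glucose uptake, glycolysis and the fate of pyruvate and lactate, and 15 belong to the hypoxia response.

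Glycolysis breaks glucose down to pyruvate in the cytosol and yields ATP without oxygen, and lactate dehydrogenase turns pyruvate into lactate that leaves the cell through monocarboxylate transporters. Resting T cells rely mostly on mitochondrial respiration, and stimulation through the T cell receptor raises their glucose uptake and lactate release even where oxygen is present. Hypoxia-inducible factor 1 alpha, encoded by Hif1a, is marked for destruction by prolyl hydroxylases of the Egln family as long as oxygen is plentiful. When spared, it pairs with Arnt and binds short promoter motifs of many glycolysis genes and of genes for mitophagy, collagen maturation and blood vessel growth. That control acts on the protein, which an RNA array does not measure.

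The cells came from C57Bl/6 mice, either wild type (WT) or Aire knockout (KO). Aire is the regulator that lets thymic epithelium display antigens of other tissues. Both genotypes were measured freshly isolated (native) and after 96 h in culture with an anti-CD3 antibody and allogenic antigen-presenting cells (activated). Each of the 4 groups had 3 arrays, here called by group and number (activated KO 3). The labels name the arrays of a group biological replicates but give neither the number of mice behind an array nor the sorting of the cells, the deleted part of Aire, or the medium and oxygen of the culture. The p-values therefore measure the spread between these arrays.

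Levels are log2 values, on which a difference of 1 is a 2-fold change, and levels of different genes are not comparable because their probes differ. The level of 1027 olfactory receptor genes, which T cells are not known to use, gives the dim limit. At background here means that a gene lies at or under the 95th percentile of those genes on the same array, for a group on all 3 of its arrays. That percentile was 6.12 to 6.72 on 11 arrays. The remaining array, activated KO 3, stood apart: its percentile was 7.31 and the interquartile range of its genes was 2.19, against 2.45 to 2.89 on the others. Counts and differences of the 33 genes that hold this array are therefore given with and without it. The 9 measured CD8 T cell markers had a mean level of 11.71 to 11.79 on native arrays, 11.17 to 11.59 on 5 activated arrays and 10.39 on activated KO 3. Cd28 itself was above background on all 12 arrays, at 11.03 to 11.97 on native and 9.98 to 11.25 on activated arrays. Aire, the targeted gene, read 5.55 to 5.92 and was at background on every array of both genotypes, so its row does not check the genotype labels. Cd4 was at background in all 4 groups. The 4 CD4 T cell markers, Cd4 among them, had a mean level of 5.91 to 6.13 on native and 6.06 to 6.41 on activated arrays. The 7 measured B cell markers had a mean level of 5.89 to 6.22 and 5.65 to 5.87.

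To show what a hypoxia factor could meet at these genes, the promoters of 7 of them follow, from 250 bases before to 50 after the start site, taken from RefSeq (GRCm38.p6) on the strand of the gene and read 5′ to 3′. Ak4, Aldoc, Bnip3, Egln3 and Slc16a3 had the 5 largest measured rises in WT cells among the genes with a promoter in the table. Tpi1 rose without a match, and Slc16a1 did not pass the test with 5 matches. Capitals mark ACGTG and GCGTG, the core of the binding motif of hypoxia-inducible factors, on either strand. Where both strands match at one place, as in the E-box core CACGTG, each strand counts. Ak4 and Aldoc have several promoters in RefSeq, of which the first listed is printed, while the counts by gene further down use all. ACGTG of Ak4 lies only in its promoter listed as number 4, which is not printed.
Ak4 (chr4:101419039-101419338, plus strand): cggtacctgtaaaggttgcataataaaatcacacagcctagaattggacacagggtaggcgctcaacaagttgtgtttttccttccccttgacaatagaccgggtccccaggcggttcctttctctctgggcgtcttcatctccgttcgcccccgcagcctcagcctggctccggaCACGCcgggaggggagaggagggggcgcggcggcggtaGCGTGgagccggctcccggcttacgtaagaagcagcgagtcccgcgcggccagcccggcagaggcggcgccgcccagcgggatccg
Aldoc (chr11:78322823-78323122, plus strand): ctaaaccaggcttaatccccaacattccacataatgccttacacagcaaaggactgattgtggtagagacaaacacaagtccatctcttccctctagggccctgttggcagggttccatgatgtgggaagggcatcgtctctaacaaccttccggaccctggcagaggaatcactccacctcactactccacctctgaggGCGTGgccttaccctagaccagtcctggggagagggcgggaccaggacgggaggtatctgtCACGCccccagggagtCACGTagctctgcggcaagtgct
Bnip3 (chr7:138909457-138909756, minus strand): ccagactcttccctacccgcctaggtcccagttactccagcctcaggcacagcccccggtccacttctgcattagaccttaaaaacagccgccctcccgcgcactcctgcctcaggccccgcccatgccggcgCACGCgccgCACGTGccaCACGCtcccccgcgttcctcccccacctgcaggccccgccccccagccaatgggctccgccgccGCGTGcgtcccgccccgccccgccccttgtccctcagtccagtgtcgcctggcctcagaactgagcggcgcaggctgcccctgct
Egln3 (chr12:54203825-54204124, minus strand): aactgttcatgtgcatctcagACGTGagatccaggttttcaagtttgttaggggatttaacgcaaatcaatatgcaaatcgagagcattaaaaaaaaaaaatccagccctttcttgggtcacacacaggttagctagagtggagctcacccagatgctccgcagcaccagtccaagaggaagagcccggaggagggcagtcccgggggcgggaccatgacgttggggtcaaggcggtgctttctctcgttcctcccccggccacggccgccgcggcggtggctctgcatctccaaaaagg
Slc16a3 (chr11:120948817-120949116, plus strand): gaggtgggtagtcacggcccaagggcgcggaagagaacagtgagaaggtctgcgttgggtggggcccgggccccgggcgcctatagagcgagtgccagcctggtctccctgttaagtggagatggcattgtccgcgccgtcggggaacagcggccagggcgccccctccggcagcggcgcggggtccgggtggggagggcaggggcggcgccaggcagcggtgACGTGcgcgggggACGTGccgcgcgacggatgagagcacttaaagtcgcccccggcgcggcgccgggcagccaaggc
Tpi1 (chr6:124814109-124814408, minus strand): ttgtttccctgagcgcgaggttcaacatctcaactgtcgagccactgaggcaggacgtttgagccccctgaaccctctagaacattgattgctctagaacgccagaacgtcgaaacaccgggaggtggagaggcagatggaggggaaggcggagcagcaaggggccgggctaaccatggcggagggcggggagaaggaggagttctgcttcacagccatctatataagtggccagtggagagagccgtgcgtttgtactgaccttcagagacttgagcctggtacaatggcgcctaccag
Slc16a1 (chr3:104638414-104638713, plus strand): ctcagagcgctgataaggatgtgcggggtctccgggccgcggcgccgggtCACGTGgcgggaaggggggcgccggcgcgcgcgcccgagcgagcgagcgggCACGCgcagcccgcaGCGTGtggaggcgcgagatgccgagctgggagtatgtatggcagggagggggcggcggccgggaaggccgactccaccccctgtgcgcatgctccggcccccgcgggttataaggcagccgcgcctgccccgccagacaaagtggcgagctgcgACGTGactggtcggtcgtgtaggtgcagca

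Of the 33 measured genes, 29 had a promoter in the RefSeq table. ACGTG was present in a promoter of 24 of these 29 genes (82.76%), against 21.78% of all 27025 genes in the table. Counted by promoter, since a gene can have several, ACGTG was in 58.33% of 48 promoters, against 19.62% of 32851. Either motif was found for 28 of the 29 genes (96.55%), against 46.73% of all genes, and the exception was Tpi1. The E-box core CACGTG was found for 7 of the 29 genes (24.14%), against 8.09%. These matches describe letters in a window and not bound sites, and base composition was not matched between the lists. The genes were also listed by name for glycolysis and the hypoxia response, whose promoters that factor is known to bind. A high share can thus come with the list and is no result of the arrays.

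The first comparison was of activated with native cells. In WT cells 24 of the 33 genes rose and 0 fell in the fit of all 12 arrays (limma, Benjamini-Hochberg over all genes, adjusted p under 0.05), and 0 lay lower at an unadjusted p under 0.05. Over all genes 9.72% rose and 10.9% fell. The median difference was 1.87 for the 33 genes and -0.02 for all genes tested. Without activated KO 3, which is in neither WT group but enters the shared spread, 30 genes rose and 0 fell, against 13.3% and 16.1% of all genes, and the 24 genes were among the 30. The 6 added were Pfkfb3, Pdk1, Bnip3l, P4ha1, P4ha2 and Mxi1.

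In KO cells 22 of the 33 genes rose and 0 fell, against 8.72% and 11.4% of all genes, with a median of 1.50 against 0.02. At an unadjusted p under 0.05, 1 gene lay lower, Hk1, whose row is in doubt for reasons given with its values. Of the called genes, Egln1 and Egln3 had KO arrays that overlapped between the states, through activated KO 3. When activated KO 3 was left out, 30 genes rose and 0 fell, against 13.4% and 11.1% of all genes, and the median was 1.97. These were the same 30 genes as in WT cells, and Hk1, Slc16a1 and Kdm3a passed in neither genotype. With all 12 arrays the genotypes shared 21 called genes; Pfkm, Vegfa and Ndrg1 passed in WT alone and P4ha2 in KO alone, which is no test of a difference between genotypes. The interaction of genotype and state, which is that test, called 0 of the 33.

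**Figure D1:**
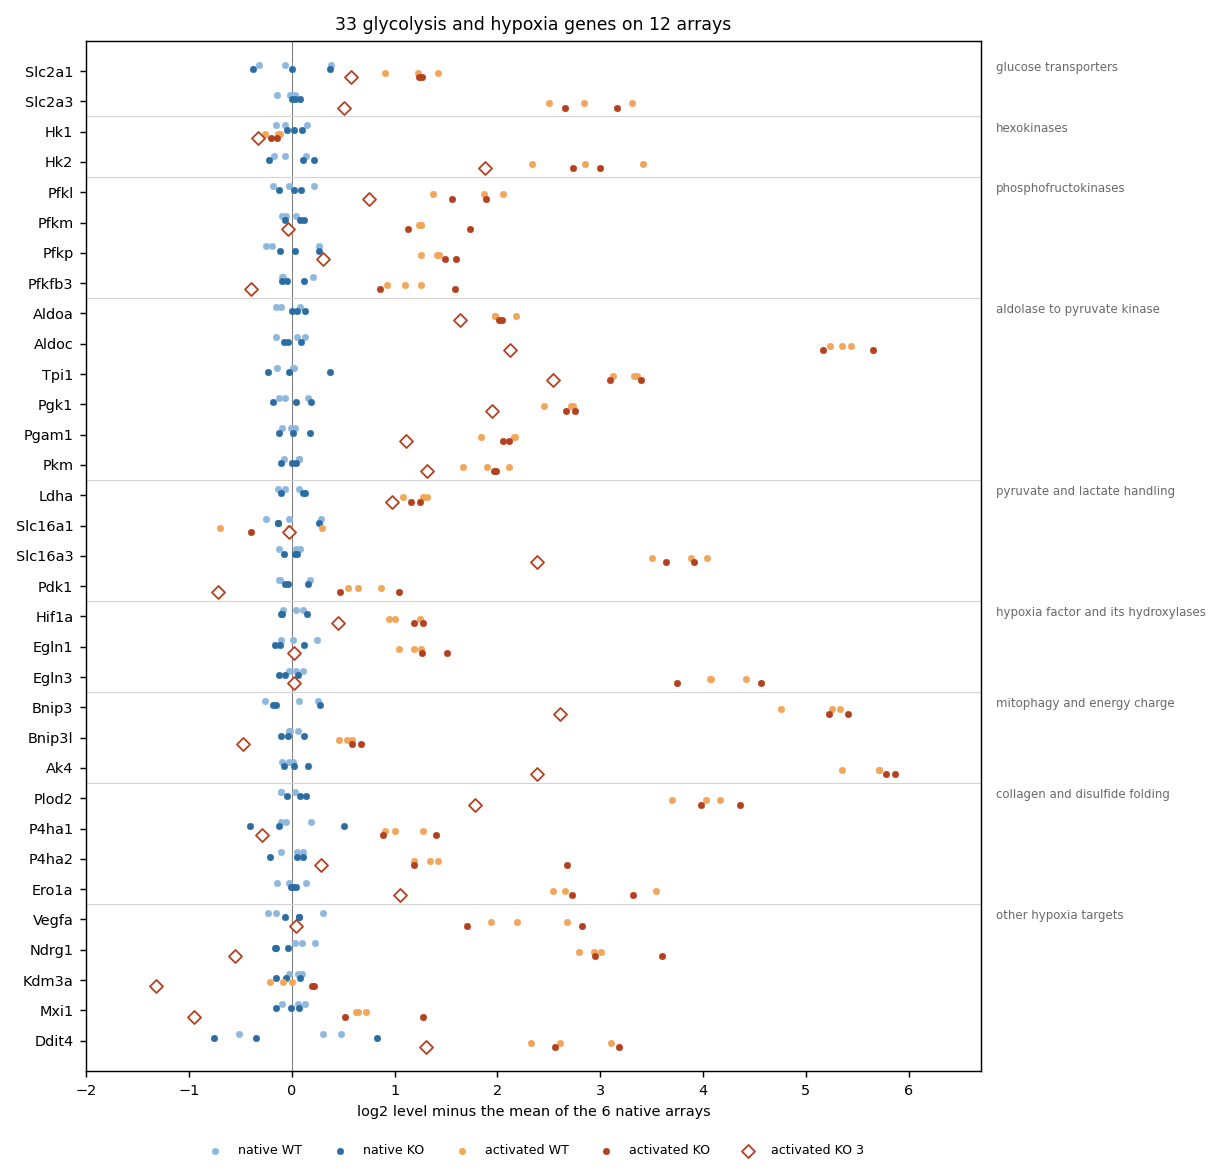
Log2 level of 33 genes on 12 arrays, each minus the gene's mean over the 6 native arrays, grouped by role; points are arrays and the open diamond is activated KO 3. Most genes lie to the right on the activated arrays, up to Ak4, Aldoc and Bnip3, and activated KO 3 lies lowest of the activated arrays for 32 of 33 genes.

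The glucose transporters came first in the pathway. Slc2a3 (GLUT3), a high-affinity transporter, read 8.70, 8.75 and 8.58 on native WT arrays 1 to 3, 8.72, 8.75 and 8.80 on native KO, 11.56, 11.22 and 12.02 on activated WT, and 11.38, 11.88 and 9.22 on activated KO. Activated arrays lay above native ones without overlap, with activated KO 3 nearest to them. The rise was 2.92 ± 0.51 in WT (SE, 3 arrays per group; adjusted p = 0.00159) and 2.07 ± 0.51 in KO (adjusted p = 0.0127), and 2.87 ± 0.20 in KO without activated KO 3. Slc2a1 (GLUT1), the transporter best known from activated T cells, rose less on this scale, by 1.18 ± 0.25 in WT and 1.03 ± 0.25 in KO (1.25 ± 0.24 without activated KO 3).

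The hexokinases, which trap glucose in the cell by phosphorylation, split. Hk2, the inducible form, was at background in both native groups (5.70 to 6.13) and rose to 8.26 to 9.34 on 5 activated arrays and 7.80 on activated KO 3. That is at least 5.79-fold in WT and 4.49-fold in KO, or 5.64-fold without activated KO 3 (adjusted p = 3.58e-05 and 0.000123). Bounds of this kind take the background level of each array in place of the dim native values. Hk1, the constitutive form, read 11.55, 11.64 and 11.85 on native WT arrays, 11.80, 11.73 and 11.65 on native KO, 11.45, 11.57 and 11.59 on activated WT, and 11.50, 11.55 and 11.37 on activated KO. The groups overlapped in WT but not in KO, and the differences of -0.14 ± 0.11 and -0.25 ± 0.11 did not pass (adjusted p = 0.456 and 0.145), nor did -0.20 ± 0.11 in KO without activated KO 3. A second, dimmer row of Hk1 went the other way, by 0.45 in both genotypes, so the direction of Hk1 depends on the row. A further 16 rows are annotated to Hk1 and the ribosomal protein gene Rpl17 together. The mean of those rows moved by -0.20 in WT and -0.31 in KO (-0.23 without activated KO 3), close to the brighter Hk1 row and opposite to the dimmer one, so the values printed for Hk1 are those of a row whose gene was not settled here.

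The 3 phosphofructokinase subunits form the committed step of glycolysis. Pfkl rose by 1.76 ± 0.26 in WT and 1.40 ± 0.26 in KO, and Pfkp by 1.43 ± 0.28 and 1.07 ± 0.28. The KO values without activated KO 3 were 1.73 ± 0.19 and 1.49 ± 0.16. Pfkm passed in WT at 1.29 ± 0.32 and, in KO, only without activated KO 3 (0.90 ± 0.32 with it, adjusted p = 0.0695, and 1.39 ± 0.15 without). Pfkfb3, whose product makes the fructose 2,6-bisphosphate that activates phosphofructokinase, gave a similar picture: 1.09 ± 0.36 in WT (adjusted p = 0.0539) and 0.69 ± 0.36 in KO (adjusted p = 0.24) did not pass, while 1.09 ± 0.17 and 1.23 ± 0.19 did without activated KO 3.

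All 6 measured genes from aldolase to pyruvate kinase rose in both genotypes, with all 12 arrays and without activated KO 3. Aldoc, aldolase C, had the largest rise among the 18 glycolysis genes. It read 5.56, 5.85 and 5.76 on native WT arrays, 5.64, 5.81 and 5.68 on native KO, 10.95, 11.07 and 11.15 on activated WT, and 10.89, 11.37 and 7.84 on activated KO. Native values were all at background and 5 activated arrays lay within 0.48 of each other, with activated KO 3 between them and the native arrays. The rise was at least 27.9-fold in WT (measured 5.33 ± 0.66 log2, adjusted p = 0.00015) and 13.4-fold in KO (4.32 ± 0.66, adjusted p = 0.000723), or 28.6-fold in KO without activated KO 3.

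Aldoa, the aldolase of most tissues, read 10.91, 10.85 and 11.09 on native WT, 11.01, 11.06 and 11.14 on native KO, 12.99, 12.99 and 13.19 on activated WT, and 13.02, 13.06 and 12.65 on activated KO. Here activated KO 3 lay close to the other activated arrays. The rise was 2.11 ± 0.13 in WT (adjusted p = 5.25e-07) and 1.84 ± 0.13 in KO (adjusted p = 1.84e-06), and 1.97 ± 0.10 in KO without activated KO 3. Tpi1, triosephosphate isomerase, rose by 3.31 ± 0.21 in WT and 2.97 ± 0.21 in KO. Pgk1, the first ATP-yielding step, rose by 2.65 ± 0.20 and 2.45 ± 0.20, and Pgam1, phosphoglycerate mutase, by 2.08 ± 0.22 and 1.74 ± 0.22. Pkm, pyruvate kinase, rose by 1.87 ± 0.17 and 1.78 ± 0.17. Without activated KO 3 the KO values were 3.21 ± 0.17 for Tpi1, 2.70 ± 0.14 for Pgk1, 2.06 ± 0.12 for Pgam1 and 2.00 ± 0.12 for Pkm. The other rows annotated to Pgk1, Pgam1 and Pkm read 1.71 to 2.65 higher in activated WT cells, and some rows of Pgk1 and of Pgam1 held identical values on every array.

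Pyruvate and lactate handling was mixed. Ldha, lactate dehydrogenase A, read 11.18, 11.12 and 11.32 on native WT, 11.38, 11.15 and 11.36 on native KO, 12.52, 12.33 and 12.56 on activated WT, and 12.49, 12.41 and 12.23 on activated KO. The groups did not overlap, and the rise was 1.27 ± 0.12 in WT (adjusted p = 1.42e-05) and 1.08 ± 0.12 in KO (adjusted p = 5.75e-05), and 1.16 ± 0.11 in KO without activated KO 3. The lactate exporter Slc16a3 (MCT4) read 6.25, 6.41 and 6.45 on native WT, 6.41, 6.30 and 6.43 on native KO, 10.25, 9.88 and 10.41 on activated WT, and 10.29, 10.01 and 8.76 on activated KO. Native levels lay near background, above it on 3 of 3 WT and 2 of 3 KO arrays, and activated levels well above it, 14.0-fold higher in WT (3.81 ± 0.31, adjusted p = 5.01e-06) and 9.90-fold in KO (3.31 ± 0.31, adjusted p = 1.73e-05), or 13.6-fold in KO without activated KO 3.

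Slc16a1 (MCT1), the related transporter that also imports lactate, did not pass: its activated arrays ran from 9.01 to 10.01 and its native arrays from 9.46 to 10.003. The differences were -0.15 ± 0.24 in WT (95% interval -0.66 to 0.37) and -0.16 ± 0.24 in KO (-0.67 to 0.36), and -0.22 ± 0.26 in KO without activated KO 3. Pdk1, the kinase that shuts pyruvate out of the mitochondria by blocking pyruvate dehydrogenase, did not pass with all 12 arrays (0.71 ± 0.33 and 0.25 ± 0.33; adjusted p = 0.169 and 0.712) and passed without activated KO 3 at 0.71 ± 0.15 and 0.74 ± 0.17.

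**Figure D2:**
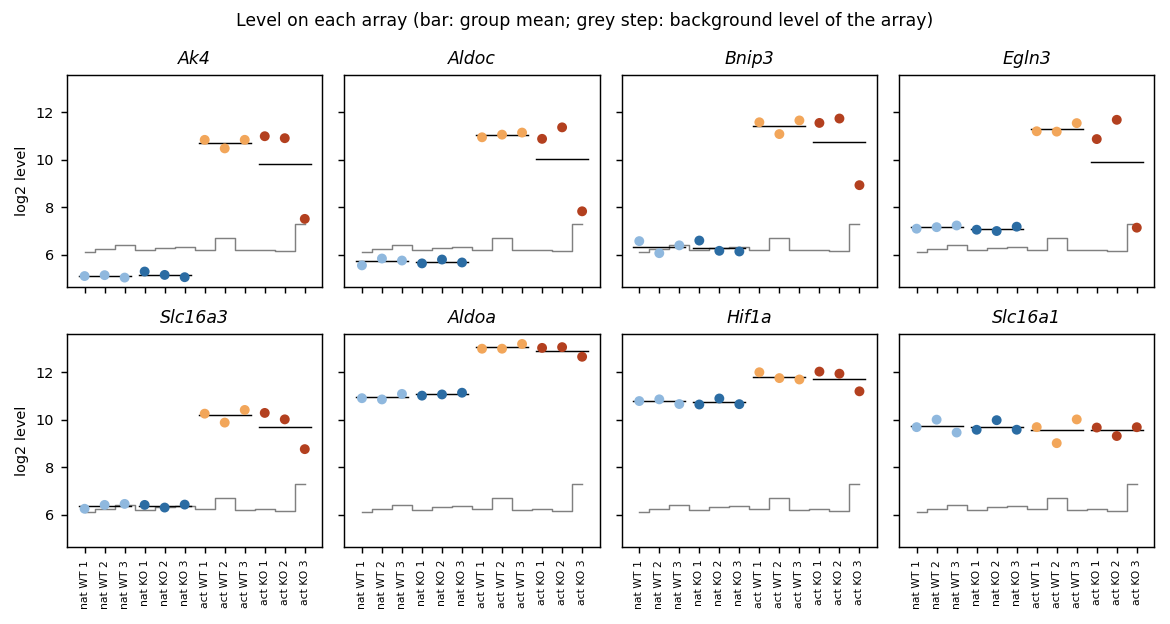
Log2 level of 8 genes on each array; bars are group means and the grey step is the background level of the array. Ak4 and Aldoc are under background on all 6 native arrays, Egln3 on activated KO 3 lies at its native level, and Slc16a1 shows no separation of native from activated arrays.

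Among the hypoxia genes, Hif1a read 10.79, 10.86 and 10.66 on native WT, 10.64, 10.89 and 10.65 on native KO, 11.998, 11.75 and 11.69 on activated WT, and 12.03, 11.94 and 11.20 on activated KO. Activated arrays lay above native ones without overlap. The rise was 1.05 ± 0.19 in WT (adjusted p = 0.00233) and 0.99 ± 0.19 in KO (adjusted p = 0.00345), and 1.25 ± 0.12 in KO without activated KO 3. Egln1, the main oxygen-sensing hydroxylase, rose by 1.11 ± 0.30 and 0.98 ± 0.30 (1.44 ± 0.14 in KO without activated KO 3).

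Egln3, a hydroxylase that is itself a target of the factor, moved much more. It read 7.11, 7.17 and 7.24 on native WT, 7.06, 7.01 and 7.19 on native KO, 11.21, 11.19 and 11.55 on activated WT, and 10.88, 11.69 and 7.15 on activated KO. On activated KO 3 it was within the native range and at background for that array. The rise was 17.7-fold in WT (4.15 ± 0.83, adjusted p = 0.00395) and 18.4-fold in KO without activated KO 3 (4.20 ± 0.20). With all 12 arrays the KO difference was 2.82 ± 0.83 as measured (adjusted p = 0.0315). It holds the reading at background, so no fold is given for it.

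Ak4, a mitochondrial adenylate kinase, had the largest measured difference of the 33 genes in both genotypes, from native values that were all at background, so its place among the genes is not known. It read 5.11, 5.15 and 5.05 on native WT, 5.30, 5.16 and 5.06 on native KO, 10.85, 10.49 and 10.85 on activated WT, and 11.00, 10.92 and 7.52 on activated KO. Activated KO 3 lay between the native arrays and the other activated ones. The rise was at least 22.2-fold in WT (measured 5.62 ± 0.68, adjusted p = 0.000133) and 11.5-fold in KO (4.64 ± 0.68, adjusted p = 0.000583), or 25.4-fold in KO without activated KO 3. A second row of Ak4 gave less, 2.05 and 1.50, so the least fold holds for the printed row alone.

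Bnip3, a receptor that marks mitochondria for mitophagy, read 6.58, 6.07 and 6.40 on native WT, 6.61, 6.17 and 6.15 on native KO, 11.59, 11.09 and 11.66 on activated WT, and 11.56, 11.74 and 8.94 on activated KO. Only array 1 of each native group was above background, and the 5 activated arrays other than activated KO 3 formed a group well above them. The measured difference, whose native side is thus known from 1 of 3 arrays in each genotype, was 34.1-fold in WT (5.09 ± 0.56, adjusted p = 6.29e-05) and 21.7-fold in KO (4.44 ± 0.56, adjusted p = 0.000197), or 40.6-fold in KO without activated KO 3. Its second row gave 3.97 and 3.22. The paralogue Bnip3l (NIX) passed only without activated KO 3, at 0.52 ± 0.09 in WT and 0.64 ± 0.10 in KO, and its second row read 0.18 and -0.05 with all 12 arrays.

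Genes of collagen maturation and disulfide folding followed. Plod2, a lysyl hydroxylase, went from background (5.29 to 5.54) to 9.09 to 9.75 on 5 activated arrays, at least 8.61-fold in WT and 9.68-fold in KO without activated KO 3. On activated KO 3 it read 7.18, which is at background for that array. The KO difference with all 12 arrays, 3.31 ± 0.49 as measured, therefore gives no least fold. Ero1a, the oxidase that recharges disulfide isomerase, rose by 2.93 ± 0.45 and 2.35 ± 0.45 (3.01 ± 0.26 in KO without activated KO 3). The prolyl hydroxylase subunits moved less: P4ha1 at 1.06 ± 0.35 and 0.67 ± 0.35 passed only without activated KO 3 (1.06 ± 0.22 and 1.15 ± 0.24). P4ha2, at background in native cells, rose by 1.40 ± 0.42 as measured in KO (adjusted p = 0.0362) and missed the threshold in WT (adjusted p = 0.0501). Without activated KO 3 it passed in both, at 1.30 ± 0.28 as measured in WT and at least 1.87-fold in KO. It was at background on activated WT 2 and activated KO 3 too, so no least fold is given for the groups that hold them. P4ha2 on activated KO 2, at 7.93, was far above the 6.45 to 6.68 of activated WT and activated KO 1.

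Of the remaining hypoxia targets, Ddit4 (REDD1), an inhibitor of mTOR complex 1, rose by 2.59 ± 0.49 in WT and 2.44 ± 0.49 in KO (2.96 ± 0.43 without activated KO 3) from a wide native range of 6.62 to 8.20. Ndrg1, a stress-induced growth regulator, rose by 2.80 ± 0.76 in WT (adjusted p = 0.0219) and missed the threshold in KO (2.11 ± 0.76, adjusted p = 0.0765), while without activated KO 3 the KO value was 3.39 ± 0.16. Vegfa, the vascular growth factor, gave 2.29 ± 0.51 in WT (adjusted p = 0.00717) and 1.50 ± 0.51 in KO (adjusted p = 0.0597), and 2.24 ± 0.30 in KO without activated KO 3. Mxi1, an antagonist of Myc, passed only without activated KO 3 (0.63 ± 0.16 and 0.93 ± 0.18). Kdm3a, a histone demethylase, passed in neither genotype (-0.14 ± 0.32 and -0.26 ± 0.32, and 0.25 ± 0.10 in KO without activated KO 3).

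Markers of other cells and of division moved with activation too. Of 16 cell cycle genes measured, 15 rose in both genotypes, from a mean level of 7.77 to 8.26 on native arrays to 10.43 to 10.86 on activated arrays. Of 12 neutrophil markers 0 passed in WT (limma, with and without activated KO 3) and 6 fell in KO (9 without activated KO 3), and 3 of 4 erythroid markers fell in both. The unlike neutrophil counts are no test of a difference between genotypes, and the interaction called 0 of the 12. Over all genes 9.72% rose and 10.9% fell in WT, and 8.72% and 11.4% in KO. Without activated KO 3 these shares were 13.3% and 16.1% in WT and 13.4% and 11.1% in KO. The 12 neutrophil markers had a mean level of 5.46 to 8.16 on native and 5.34 to 5.66 on activated arrays, and the 4 erythroid markers 6.39 to 7.47 and 5.53 to 5.86. The 15 macrophage and dendritic markers had a mean level of 5.68 to 6.19 over all arrays, and Csf1r, Adgre1 and Cd14 were at background in all 4 groups. In KO 3 of the 15 fell (Lyz2, Flt3 and Siglech), and without activated KO 3 Xcr1 fell too while Cd68 rose in both genotypes. Of 4 CD4 T cell markers, 1 rose and 1 fell in each genotype, with and without activated KO 3. Of 7 B cell markers 0 rose, and 1 fell in each genotype (2 in KO without activated KO 3). Of 6 MHC class II genes, 1 rose in WT (H2-Ab1) and 3 fell in KO (H2-Aa, H2-Eb1 and Cd74), with medians of -0.22 and -0.90 over the 6. H2-Ab1 read 8.41 to 9.95 on 5 activated arrays and 5.64 on activated KO 3, and without that array it rose in KO as well. H2-Aa and Cd74 were at background in both activated groups. Fewer cells of a type and less RNA per cell cannot be told apart in such bulk samples. The part of these differences in the rise of the 33 genes was not tested.

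The wider pathways were taken from lists written beside the 33 genes. Values of single genes here are from all 12 arrays, and the counts stand beside 9.72% of all genes that rose and 10.9% that fell in WT, and 8.72% and 11.4% in KO. Of 27 other glycolysis genes measured, 5 rose and 4 fell in WT, and 4 rose and 4 fell in KO, with medians of -0.01 and 0.11. The rises in KO numbered 7 without activated KO 3, where 13.4% of all genes rose. Bpgm, which diverts an intermediate to 2,3-bisphosphoglycerate, fell by 1.26 in WT and by 1.35 in KO. Pdhb, a subunit of pyruvate dehydrogenase, fell by 1.05 and by 1.15, and Pdk3, a kinase that inhibits that enzyme, rose by 1.22 ± 0.20 and 1.24 ± 0.20. Of 33 other hypoxia pathway genes, 11 rose and 5 fell in WT, and 8 rose and 5 fell in KO. Without activated KO 3 the KO counts were 12 and 5, against 13.4% and 11.1% of all genes. The transferrin receptor Tfrc rose by 1.70 ± 0.28 and 1.46 ± 0.28, Fam162a, a mitochondrial protein, by 2.02 ± 0.36 and 1.72 ± 0.36, and Egfl7, an endothelial secreted protein at background in native cells, by 0.90 ± 0.13 and 0.69 ± 0.13 as measured.

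Of 23 upstream regulators of T cell glycolysis, 4 rose and 3 fell in WT and 3 rose and 2 fell in KO, against those same shares of all genes. Irf4, a transcription factor induced through the T cell receptor, rose by 2.77 ± 0.37 in WT and 2.21 ± 0.37 in KO. The kinase Akt1 rose by 0.81 ± 0.14 and 0.90 ± 0.14, and the deacetylase Sirt1 fell by 0.89 and by 0.83. Without activated KO 3 the falls among these regulators numbered 10 in WT and 1 in KO, against 16.1% and 11.1% of all genes. These counts thus rest on that array, which enters the WT comparison only through the shared spread.

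The second comparison was of KO with WT cells. Across the 33 genes the activation difference in KO followed that in WT: Pearson's r was 0.987 and Spearman's rho 0.978 across genes, from arrays that the 2 differences do not share, and genes are not independent replicates. With all 12 arrays the KO value was the smaller for 32 genes, against 46.6% of all genes tested. Without activated KO 3 it was the smaller for 11, against 45.6% of all genes tested. The r across the 33 was then 0.992 and the gap (KO minus WT) ran from -0.14 to 0.65 with a median of 0.08.

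**Figure D3:**
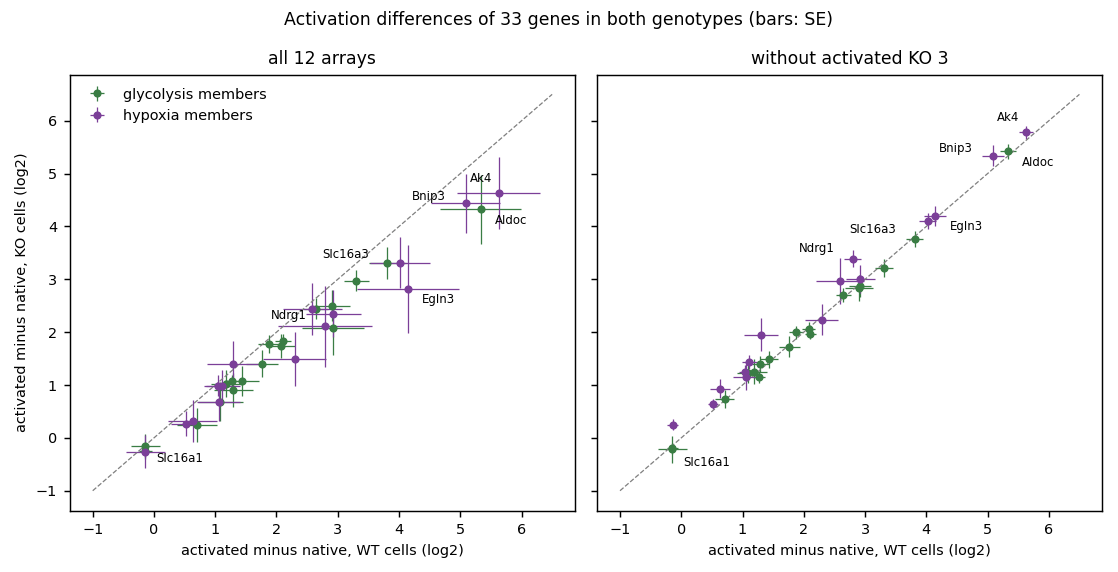
Activated minus native log2 difference of 33 genes in WT (horizontal) and KO cells (vertical), with all 12 arrays (left) and without activated KO 3 (right); bars are standard errors and the dashed line marks equal values. With all arrays 32 genes lie under the line, and without activated KO 3 the points lie along it with 11 under it.

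In native cells 0 of the 33 genes differed between KO and WT (limma; 0% of all genes were called higher and 0% lower, and at an unadjusted p under 0.05 the counts were 0 of the 33 and 92 higher and 39 lower over all genes). Of the 33, 16 lay above and 17 below WT, against 40.1% above and 59.9% below over all genes. The 3 with the smallest unadjusted p, given as values that did not pass, were Aldoa at 0.12 ± 0.13, Ldha at 0.09 ± 0.12 and Hk1 at 0.05 ± 0.11. The differences ran from -0.23 (Ndrg1) to 0.12 (Aldoa), and the 95% intervals lay within a 2-fold change either way for 23 of the 33 genes. Without activated KO 3, which is in neither group but enters the shared spread, that held for 32, all but Ddit4 (-0.18, interval -1.04 to 0.67). Neutrophil markers had a mean level of 5.46 to 6.75 on native WT and 6.05 to 8.16 on native KO arrays.

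In activated cells 0 of the 33 genes passed (limma; 0% of all genes higher and 0% lower; 0 of the 33 at an unadjusted p under 0.05, and 43 higher and 44 lower over all genes). With all 12 arrays 32 of the 33 lay below WT, all but P4ha2, with a median of -0.33. Over all genes 52.3% lay below, with a median of -0.01. The smallest unadjusted p belonged to Egln3 at -1.41 ± 0.83 (limma, adjusted p = 1.00), Slc16a3 at -0.49 ± 0.31 and Aldoc at -1.02 ± 0.66. In each of these genes activated KO 1 and KO 2 lay within or beside the WT range, and activated KO 3 lay far under it.

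With that array left out, 0 genes passed again (0% and 0%), 24 of the 33 lay above WT and 9 below, and the median was 0.08. Over all genes 48.0% lay above, with a median of -0.01. Egln3 then read -0.03 ± 0.20, Slc16a3 -0.03 ± 0.15 and Aldoc 0.07 ± 0.14. The largest gap was P4ha2 at 0.61 ± 0.31. Ndrg1 (0.36 ± 0.16) and Kdm3a (0.30 ± 0.10) lay higher at an unadjusted p of 0.0477 and 0.0127, which did not pass (adjusted p = 0.967 for both), among 407 genes of the whole array that did so in that direction and 246 in the other. The 95% intervals lay within a 2-fold change either way for 31 of the 33 genes, against 17 with all 12 arrays, and the 2 exceptions were P4ha2 (-0.07 to 1.30) and Ddit4 (-0.77 to 1.15).

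The interaction of genotype and state, which asks whether activation moved a gene differently in KO, called 0 of the 33 (limma; 0% of all genes in either direction, with and without activated KO 3). At an unadjusted p under 0.05 the counts were 0 of the 33 with all 12 arrays, where 41 genes were higher and 45 lower, and 2 of the 33 without activated KO 3, Ndrg1 and Kdm3a, where 245 were higher and 169 lower. The median of the 33 was -0.36 with all 12 arrays and 0.08 without that array, against 0.01 and 0.02 for all genes. The smallest unadjusted p with all 12 arrays belonged to Aldoa (-0.27 ± 0.18), Slc2a3 (-0.85 ± 0.72) and Slc16a3 (-0.50 ± 0.43), and none passed.

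Since the sign of the median turned without it, activated KO 3 is described by itself. Against the mean of the other 5 activated arrays it was the lowest for 32 of 33 genes, all but Slc16a1, and for 32.6% of all genes. The median gap was -1.35 for the 33 and 0.03 for all genes. Of the 2269 genes that rose in both genotypes without this array, it was the lowest for 60.7%, with a median gap of -0.42. For the 30 of the 33 among them it was the lowest in all 30, with a median gap of -1.38. Of the 33 genes, 8 were at background on it (Egln3, Ndrg1, Vegfa, Pfkm, Mxi1, P4ha2, Plod2 and Pfkfb3), against 0 or 1 on each of the other activated arrays. The median level of the 33 was 8.97 on this array, 8.51 to 8.70 on the native arrays and 10.57 to 11.30 on the other activated arrays.

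How much of the activation shift the array showed differed by role. The shift is the mean of the other 5 activated arrays minus the mean of the 6 native ones, and the share is the part of it seen on activated KO 3. Of 2269 genes that rose in both genotypes without that array, the median share was 56.4%. It was 92.0% for the 15 cell cycle genes, 50.8% for the 16 glycolysis genes and 9.98% for the 14 hypoxia genes among them. Shares ran from -99.6% to 80.6% for glycolysis and from -125% to 50.2% for hypoxia genes. On activated KO 3, 6 of the 14 hypoxia, 2 of the 16 glycolysis and 0 of the 15 cell cycle genes were at background, against 803 of the 2269. The shares of those genes are not known exactly. Ldha (80.6%), Aldoa (80.4%), Tpi1 (77.9%) and Pgk1 (73.0%) kept most of their shift. Ak4 (41.9%), Aldoc (39.5%) and Bnip3 (50.2%) kept a smaller part.

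Of the 30 raised genes, Egln3 (0.45%), Egln1 (1.38%) and Vegfa (1.92%) lay in the native range. Ndrg1, Mxi1, Bnip3l, Pdk1 and Pfkfb3 lay under every native array. Genes outside the 30 are not covered by this. Hk1, for example, lay under every native array on its printed row, at 11.37 against 11.55 to 11.85. The 9 CD8 T cell markers were also the lowest on this array, with a median gap of -1.04. With quantile normalization the shares were 74.2% for the 2269 genes, 96.5% for cell cycle, 62.2% for glycolysis and 19.1% for hypoxia genes, in the same order. What set this array apart was not tested.

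**Figure D4:**
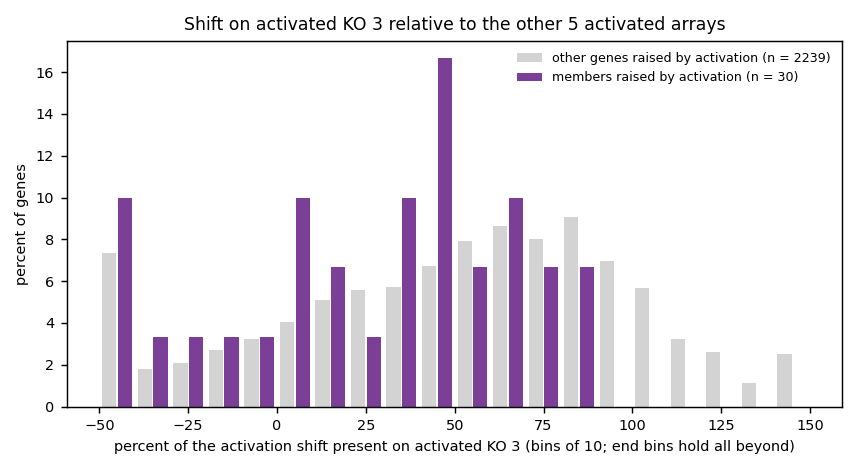
Share of the activation shift present on activated KO 3, in bins of 10 percent with the end bins holding all values beyond; bars give the percent of the 30 raised glycolysis and hypoxia genes and of the other raised genes. The 30 genes lie further left, with a median of 39.5%, against 56.4% for all raised genes.

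The other 5 activated arrays varied less, and by role. Activated KO 2 was the highest of these 5 for 11 of 15 hypoxia genes and 5 of 18 glycolysis genes. Activated WT 3 was the highest for 10 of 18 glycolysis genes and 1 of 15 hypoxia genes. Activated WT 2 was the lowest for 17 of the 33 genes, and its background level of 6.72 was the highest of the 5. Ndrg1, for example, read 10.57 to 10.77 on the WT arrays and activated KO 1 and 11.37 on activated KO 2, while Hk2 was highest on activated WT 3, at 9.34.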

How the data were processed

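RNA of 12 samples was measured on Affymetrix whole-transcript arrays. The submitters' processing notes name Partek and RMA for the log2 values that the authors deposited, 1 per row; no version or option of either is given in the sources used here. RMA compresses differences near background. The table held 35556 rows: 21789 with 1 symbol, of which 21698 matched the GRCm38.p6 gene table, 1621 with several and 12146 with none, the last 2 kinds left out. The brightest row stood for a gene, and no dim gene was filtered out. Array number limits the precision.

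Group means of all 12 arrays were fitted with limma 3.58.1 (lmFit, eBayes) in R 4.3.3, adjusted over 19938 genes, after a test on simulated data. Errors are standard errors of that fit. The genes and lists were chosen with earlier results of these data known. The value on every array is given for Hif1a and, in each comparison, the 3 largest called rises and falls whose groups do not overlap, or the 3 smallest unadjusted p where fewer than 3 passed. Of other pathway lists, up to 3 genes with the smallest adjusted p on activation are named. Other genes of the 33 are given by range, count or difference. Alternatives were other normalizations, row choices, filters and variance models, arrays left out and replicate blocks. Deviations from the group means gave r = 0.58, 0.40 and 0.16 between native KO and WT arrays of one number. Between activated ones r was 0.69, -0.02 and -0.01. Between native and activated arrays of one genotype and number it ran from -0.14 to 0.34. Activated KO 3 enters the group mean from which the activated KO deviations were taken. These values therefore do not settle which arrays are paired, and the main fit used no block.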

Additional observations from a re-analysis of the deposited data

How the results depend on the processing

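Under every alternative run, 0 of the 33 genes fell with activation or differed between genotypes. Leaving out 1 array gave 22 to 30 rises in WT and 17 to 30 in KO cells, both maxima without activated KO 3, and array weights gave 30 in each. Quantile normalization gave 27 and 24, and a fit of only the groups compared 30 and 17. A fit with a replicate block gave 26 rises in WT (P4ha1 and P4ha2 added) and 22 in KO cells, and it changed no other call. The median KO minus WT difference ran from -0.58 to 0.082 in activated cells and from -0.59 to 0.084 for the interaction when 1 array was left out, above 0 only without activated KO 3. Of the genes followed in each comparison, those that turned with 1 array left out were, on activation in WT, Slc16a1 (-0.37 to 0.13), and in KO, Pdk1 (-0.14 to 0.74), Mxi1 (-0.19 to 0.93) and Kdm3a (-0.52 to 0.25). Between genotypes in activated cells they were Aldoc (-1.69 to 0.073), Ndrg1 (-1.72 to 0.36), Ak4 (-1.51 to 0.23) and Bnip3 (-1.20 to 0.20), in native cells Hk1 (-0.019 to 0.13), and for the interaction Egln3 (-2.22 to 0.053), Ndrg1 (-1.49 to 0.59), Ak4 (-1.58 to 0.16), Aldoc (-1.68 to 0.086) and Bnip3 (-1.15 to 0.25). With array weights Slc16a1 in WT was 0.0012, Kdm3a in KO 0.13, Ndrg1 0.25 between activated genotypes and 0.47 for the interaction, and Bnip3 0.0014 for the interaction. With the mean of its rows Hk1 was 0.15 in WT, 0.10 in KO and -0.023 between native genotypes; with its second row it was 0.45, 0.45 and -0.093, and Bnip3l in KO was -0.048, a setting chosen after seeing the data, as was quantile normalization for the shares on activated KO 3. The cause of these changes was not tested. For the 5 genes at background in native cells at most a least fold is known, which is smaller than the fitted difference. No least fold is known where an activated array of the group was at background too, as for Plod2 and P4ha2 on activated KO 3.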
